A study of Mus musculus with 12 samples.

Results

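The subject of these results was the set of CpG island probes that were strongly enriched for methylated DNA in all 4 mouse ES cell lines of the study. The probes were selected on their measured log2 ratios. A probe was included if it lay on chromosomes 1 to 19 and if its mean log2 ratio of immunoprecipitated over input DNA, taken over the 3 arrays of a line with the median of each array set at 0, was above 2 in each line. A log2 ratio of 2 is a 4-fold enrichment over the median probe. Of 85850 autosomal probes, 2996 (3.49%) met this rule and are called shared high probes here. The array held 88737 probes in all. The levels that chose these probes are given as a description only and were not tested. Differences between lines were fitted on the same ratios, so counts of shared high probes that passed are a description too.

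CpG islands are short stretches of the genome that are rich in CpG dinucleotides and often overlie promoters. Most of them are free of 5-methylcytosine (5mC) in most cells, and the minority that are methylated include islands away from promoters, silenced promoters, germline genes and regions that carry parental imprints. In MeDIP, sheared DNA is pulled down with an antibody to 5mC, so that a probe reads the methylation of fragments that extend beyond its own bases, and fragments with many methylated CpGs are captured most strongly.

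The lines CC9mus, CC9spretus, CC9dunni and CC9pahari carried the mitochondrial DNA (mtDNA) of Mus musculus, Mus spretus, Mus terricolor and Mus pahari, respectively. All 4 were made by fusing enucleated cytoplasts with mtDNA-depleted CC9.3.1 ES cells, a line from a 129SvEv-Gpi1c embryo, so they shared their chromosomes, and CC9mus had the same mtDNA as the parental cells. Each was a single cell line, grown on inactivated feeder fibroblasts and then for 48 h without feeders before DNA was taken. Each line was hybridised to 3 arrays described as biological replicates, with immunoprecipitated DNA in Cy5 and input DNA in Cy3 on every array and no dye swap.

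The arrays were not alike in scale. The SD of the log2 ratio over all probes was 0.53 on CC9mus replicate 1, 1.85 and 2.01 on CC9mus replicates 2 and 3, and from 1.09 to 1.38 on the 9 arrays of CC9spretus, CC9dunni and CC9pahari (the divergent lines). There were 8 slides for the 12 arrays, and scans fell in 2 periods. All CC9mus arrays and replicate 3 of each divergent line fell in the later period, and replicates 1 and 2 of the divergent lines in the earlier one. Within the later period the CC9mus arrays were scanned on a day of their own, on slides with no other line. For CC9mus, line, scan day and slide therefore cannot be told apart. Whether the immunoprecipitation of CC9mus replicate 1 worked as on the other arrays was not tested, and every CC9mus mean and SD below includes that array unless stated. With 3 arrays per line, their number limited the precision of every value below, and the part of slide and scan period in the levels was not tested.

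The shared high probes stood far above the other probes on every array, but at different heights. Their median log2 ratio was 1.22, 3.57 and 4.75 on CC9mus replicates 1, 2 and 3. It was 3.66, 3.82 and 4.61 in CC9spretus. It was 3.68, 3.72 and 4.08 in CC9dunni and 3.42, 3.34 and 3.62 in CC9pahari. The 3 CC9mus arrays therefore spanned the lowest and the highest median of the study, while the 3 CC9pahari arrays lay closest together. As means of the array medians, the lines had 3.18 ± 1.80 in CC9mus, 4.03 ± 0.51 in CC9spretus, 3.83 ± 0.22 in CC9dunni and 3.46 ± 0.15 in CC9pahari (SD, n = 3 arrays each). These 4 means lay within 1 SD of CC9mus of each other. The median of the other autosomal probes was between -0.11 and -0.02 on every array.

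**Figure D1:**
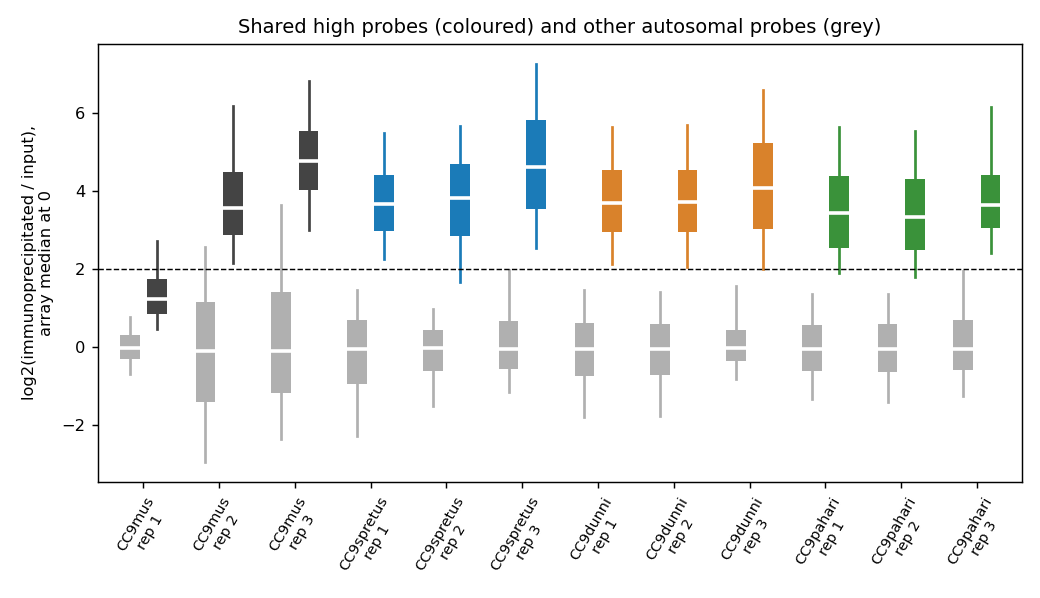
Log2 ratio of immunoprecipitated over input DNA (y axis, array median at 0) on each of the 12 arrays (x axis). Boxes span the 25th to 75th percentile, white bars the median and lines the 5th to 95th percentile; coloured boxes hold the 2996 shared high probes, grey boxes all other autosomal probes, and the dashed line marks 2. On CC9mus replicate 1 the median of the shared high probes was 1.22, below the threshold, and on the other 11 arrays it was between 3.34 and 4.75.

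As a description, these probes were also placed in the ranking of each array. As they were selected on the same values and make up the top few percent, their percentile is close to its ceiling by construction. The median shared high probe lay at percentile 97.6, 97.5 and 97.5 of the autosomal probes on CC9mus replicates 1, 2 and 3, and between percentiles 98.1 and 98.2 on the other 9 arrays. Between 70.8% and 72.8% of them were among the top 5% of autosomal probes on the CC9mus arrays, and between 91.0% and 97.5% in the divergent lines. All 2996 had a positive log2 ratio on every array that measured them. For 78 of them a spot was marked as an outlier and was missing on 1 array, so that the mean of that line was over the remaining arrays.

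The rule asked for line means, not for each array. On CC9mus replicate 1, only 512 of the shared high probes were above 2 themselves, against 2698 to 2958 on the other 11 arrays. In total, 484 were above 2 on every array that measured them. On the 9 arrays of the divergent lines, 2333 were above 2 throughout, and 2281 when CC9mus replicates 2 and 3 were added. The mean over the 4 lines was above 3 for 2174 probes (72.6%), above 4 for 1078 (36.0%), above 5 for 333 (11.1%) and above 6 for 22 (0.73%).

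The lines contributed unequally to the rule. In CC9mus 7935 autosomal probes (9.24%) had a mean above 2, in CC9spretus 4364 (5.08%), in CC9dunni 4481 (5.22%) and in CC9pahari 3923 (4.57%). The shared high probes were 37.8% of the CC9mus list, 68.7% of the CC9spretus list, 66.9% of the CC9dunni list and 76.4% of the CC9pahari list. A further 894 probes were above 2 in exactly 3 lines. Of these, 357 missed the threshold only in CC9mus, 332 only in CC9pahari, 130 only in CC9dunni and 75 only in CC9spretus. Above 2 in 2 lines were 813 probes, in 1 line 4411 and in none 76736.

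The spots were bright in the immunoprecipitated channel. On each array, 99.1% to 100% of the shared high probes and 74.5% to 98.7% of the other autosomal probes passed the scanner software's test of a signal well above background. Their input signal was slightly dim, with a median from 0.10 to 0.35 log2 units below the median of the array. Median probe length was 45 bases in both sets. That length was held by 67.9% of the shared high probes and 74.2% of the other autosomal probes. At the bright end, 14 of the 20 autosomal probes whose immunoprecipitated signal was saturated on any array were shared high probes. On each array with saturated shared high probes, most of them lay in 1 locus on chromosome 17, described below. On CC9mus replicate 3 these were 10 of 12.

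The 22 probes with a mean over the lines above 6 lay in 12 loci, and the highest are given below as 1 probe per locus, with positions on build mm9. Neither gene names nor probe sequences are given in the array files, and no genome or annotation of mm9 was used here, so places are given by position alone. The probe with the highest mean over the lines, at chr9:99394814-99394872, stood alone in its locus. Its log2 ratio was 3.25, 6.68 and 8.16 on the CC9mus arrays, 6.69, 6.34 and 7.17 in CC9spretus, 7.04, 7.07 and 7.09 in CC9dunni, and 7.01, 6.67 and 6.82 in CC9pahari. The CC9mus arrays lay below, within and above the range of the others, whereas the 3 CC9dunni arrays were nearly equal. The mean over the lines was 6.67.

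The next 4, each the highest probe of its own locus, were similar in level. The probe at chr17:12464504-12464555 had line means of 5.44 ± 2.20 in CC9mus, 7.23 ± 1.03 in CC9spretus, 7.01 ± 0.57 in CC9dunni and 6.89 ± 0.67 in CC9pahari (SD, n = 3). At chr6:135994125-135994175 the line means were between 5.70 and 6.75, at chr7:134755025-134755069 between 5.45 and 6.82, and at chr2:179028252-179028296 between 6.20 and 6.55. In all 4 of these loci every probe was a shared high probe, 4, 4, 5 and 3 probes, respectively.

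At the other end, the threshold separated probes that differed by very little. The 3 shared high probes nearest to it had a lowest line mean of 2.00084, 2.00184 and 2.00189, and lay at chr10:41917452-41917496, chr10:80616963-80617007 and chr10:80069708-80069752. The 3 nearest probes outside had a lowest line mean of 1.99996, 1.99925 and 1.99892, at chr8:113262460-113262504, chr15:76462358-76462402 and chr2:164332796-164332840.

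The shared high probes were spread over all 19 autosomes, in unequal shares. They made up 6.16% of the probes on chromosome 15, 6.02% on chromosome 10, 5.15% on chromosome 17, 4.59% on chromosome 5 and 4.57% on chromosome 8. These 5 chromosomes held 40.8% of the shared high probes and 27.3% of the autosomal probes. The share was lowest on chromosome 11, at 1.99%, followed by chromosomes 9 and 14, both at 2.40%, and chromosome 16, at 2.45%. Counted by locus, a locus being probes joined by gaps of at most 1000 bp, 1029 of 14177 autosomal loci (7.26%) held at least 1 shared high probe. The same 5 chromosomes had the highest shares of loci, from 8.98% on chromosome 8 to 10.2% on chromosome 10. They also remained the top 5 by share of probes with arrays scaled to equal spread and when any 1 array was left out. Pooled over chromosomes, the last 10% of the stretch covered by probes held 19.1% of the shared high probes and 14.0% of all autosomal probes. The share of shared high probes was the higher one on 14 of the 19 chromosomes and the lower one on chromosomes 1, 7, 10, 15 and 17.

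**Figure D2:**
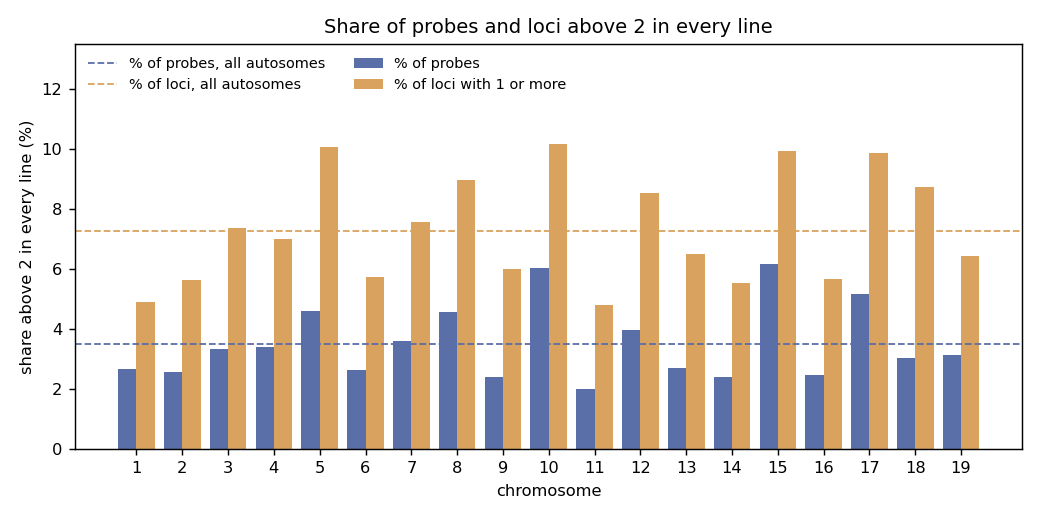
Share of probes (blue bars) and of loci with at least 1 such probe (orange bars) that were above 2 in every line, in percent (y axis), for each autosome (x axis); dashed lines mark the shares over all autosomes, 3.49% of probes and 7.26% of loci. Chromosomes 5, 8, 10, 15 and 17 were above both lines by the widest margins, and chromosome 11 was the lowest in both.

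At a finer scale, 643 of the 1963 windows of 1 Mb with a probe held a shared high probe, and the 10 fullest windows held 352 of them, 11.7%, with 2.60% of the autosomal probes. The fullest were 2 neighbours on chromosome 10, with 62 of 422 probes between 79 and 80 Mb and 59 of 405 in the next 1 Mb. On chromosome 15 there were 47 of 311 between 76 and 77 Mb. These windows were dense in probes, and the probes in them that were not shared high probes had a median over the lines of -0.03, 0.06 and -0.21. The window at 46 to 47 Mb on chromosome 8 was different, since 36 of only 56 probes there were shared high probes.

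The shared high probes were most frequent in small loci. They made up 22.8% of the probes that stood alone, 12.1% in loci of 2 probes, 9.59% in loci of 3 and 8.28% in loci of 4. The share was 4.15% in loci of 5 probes and 2.07% in loci of 6 or 7, and in loci of 21 to 40 probes it was 0.60%. Loci of 1 to 4 probes thus held 53.0% of the shared high probes and 19.8% of autosomal probes, and loci of over 10 probes held 8.14% and 21.7%. Loci with a shared high probe had a median of 4 probes over 398 bp, and the other loci 5 probes over 673 bp.

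In many loci every probe was above 2 in every line. This was so in 535 of the 1029 loci (52.0%), and these loci held 1850 of the shared high probes (61.7%). Of these 535 loci, 79 consisted of a single probe and 103 of 5 or more probes. The loci of 5 or more probes held 650 shared high probes and lay on every autosome, with 12 on chromosome 10, 10 on chromosome 15 and 9 on chromosome 17. With normexp background correction, an alternative to the scanner software's subtraction, 149 of 438 loci had every probe above 2.

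The 103 loci of 5 or more probes were described by the mean of their probes on each array. The mean over the lines ran from 2.88 to 6.001, with a median of 3.99. In 101 of the 103 loci the mean was above 2 on all 9 arrays of the divergent lines, and in 25 it was also above 2 on CC9mus replicate 1. CC9mus was the lowest line in 76 of these loci and CC9spretus the highest in 75, on ratios that were not scaled to equal spread. Without CC9mus replicate 1, CC9mus was the lowest in 12 and the highest in 42, and CC9pahari was the lowest in 73. The lowest of them, at chr1:188791248-188792165 with 7 probes, had line means of 2.83 ± 1.88 in CC9mus, 3.03 ± 0.47 in CC9spretus, 3.10 ± 0.03 in CC9dunni and 2.54 ± 0.55 in CC9pahari (SD, n = 3), which did not differ beyond the spread of the arrays of CC9mus.

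Other long loci of this kind were found on chromosomes 2, 7, 10, 14, 17 and 18. A locus of 10 probes at chr10:80787882-80788779 read 1.36, 3.62 and 5.25 on the CC9mus arrays, 4.12, 4.45 and 4.71 in CC9spretus, 4.18, 4.17 and 3.94 in CC9dunni, and 3.94, 3.77 and 3.88 in CC9pahari. Its divergent lines lay close together, inside the range of the CC9mus arrays. A locus of 9 probes at chr17:23956103-23957161 was above 2 on all 12 arrays, with line means of 5.50 ± 1.94, 6.02 ± 1.31, 5.22 ± 0.81 and 5.73 ± 0.82 (SD, n = 3, in the order CC9mus, CC9spretus, CC9dunni, CC9pahari). At chr10:79197977-79198960, in contrast, the mean of the 8 probes was 5.44 ± 0.26 in CC9spretus, 3.63 ± 0.70 in CC9dunni, 3.66 ± 0.35 in CC9pahari and 5.24 ± 2.79 in CC9mus (SD, n = 3). The CC9spretus arrays did not overlap those of CC9dunni and CC9pahari, the CC9mus arrays enclosed all of them, and the difference over the locus was not tested.

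**Figure D3:**
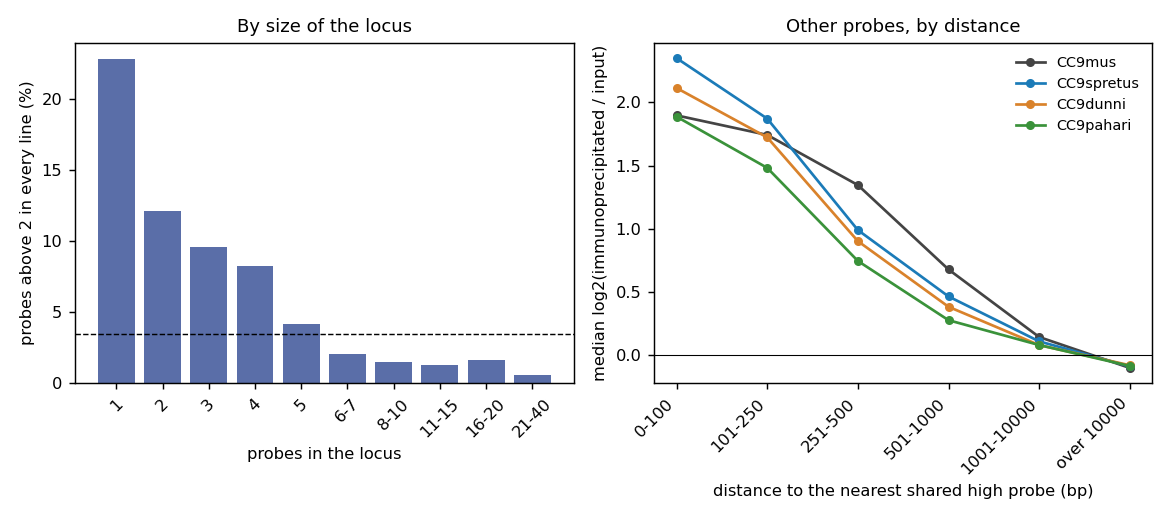
Left, share of probes above 2 in every line in percent (y axis) by the number of probes in the locus (x axis), with the share over all autosomes as a dashed line. Right, median log2 ratio of the other autosomal probes (y axis) in each line by their distance to the nearest shared high probe (x axis, in bp). The share went from 22.8% for probes that stood alone to 0.60% in the largest loci, and the medians from between 1.89 and 2.35 within 100 bp to below 0 beyond 10 kb.

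Most shared high probes had a shared high neighbour. Neighbouring probes of a locus that all met the rule formed 1096 runs, of which 377 were single probes, and 2619 shared high probes (87.4%) lay in runs of 2 or more. There were 144 runs of at least 5 probes, with 911 probes and a median length of 596 bp, and 8 of at least 10. The level was higher in longer runs, mainly up to 3 or 4 probes. The median over the lines was 2.77 for single probes, 3.24 in runs of 2, 3.79 in runs of 3 or 4, 3.74 in runs of 5 to 9 and 4.08 in runs of 10 or more. Of the single probes, which lay closer to the threshold, 44.6% were above 2 on all 9 arrays of the divergent lines, against 84.6% in runs of 3 or 4. Within runs of at least 5 probes, the 288 first or last probes had a median of 3.66 and the 623 inner probes one of 3.83.

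The longest run covered a locus of 19 probes at chr17:39980411-39983633, all of them shared high probes. The mean of its 19 probes was 0.80, 2.94 and 5.999 on the CC9mus arrays, 2.97, 4.29 and 1.93 in CC9spretus, 4.86, 4.95 and 3.53 in CC9dunni, and 5.49, 5.48 and 4.76 in CC9pahari. CC9mus replicate 1 and CC9spretus replicate 3, neither with a saturated spot there, lay below 2. This locus was unlike the others in its signals. Its median input signal was between 10.3 and 68.1 times the array median, and its immunoprecipitated signal was saturated at up to 10 of the 19 probes of an array, on 9 of the 12 arrays. Its ratios at saturated spots are therefore lower bounds, and the arrays that hold them cannot be put in order. With saturated probes left out, the longest run was the one of 16 probes on chromosome 15.

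The other long runs had ordinary input signals. A locus of 16 probes at chr15:76002674-76005608 formed the second run, with means over the run of 3.99 ± 2.13 in CC9mus, 5.57 ± 0.55 in CC9spretus, 5.10 ± 0.22 in CC9dunni and 4.56 ± 0.14 in CC9pahari (SD, n = 3). All 144 of its spots on the divergent lines' arrays were above 2. Next came 13 probes at chr15:78502303-78503815, with 3.28 ± 2.14, 4.61 ± 0.22, 4.58 ± 0.10 and 4.07 ± 0.25 in the same order of lines. At chr7:52262461-52263862, 13 of the 14 probes of a locus were shared high probes, and the levels of the divergent lines were lowest at its far end. The fifth run, of 11 probes at chr5:131915292-131916588, had 3.14 ± 2.06 in CC9mus, 5.21 ± 0.58 in CC9spretus, 5.19 ± 0.14 in CC9dunni and 4.14 ± 0.32 in CC9pahari. Its levels were lowest at the first probe in the divergent lines and highest near the middle.

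**Figure D4:**
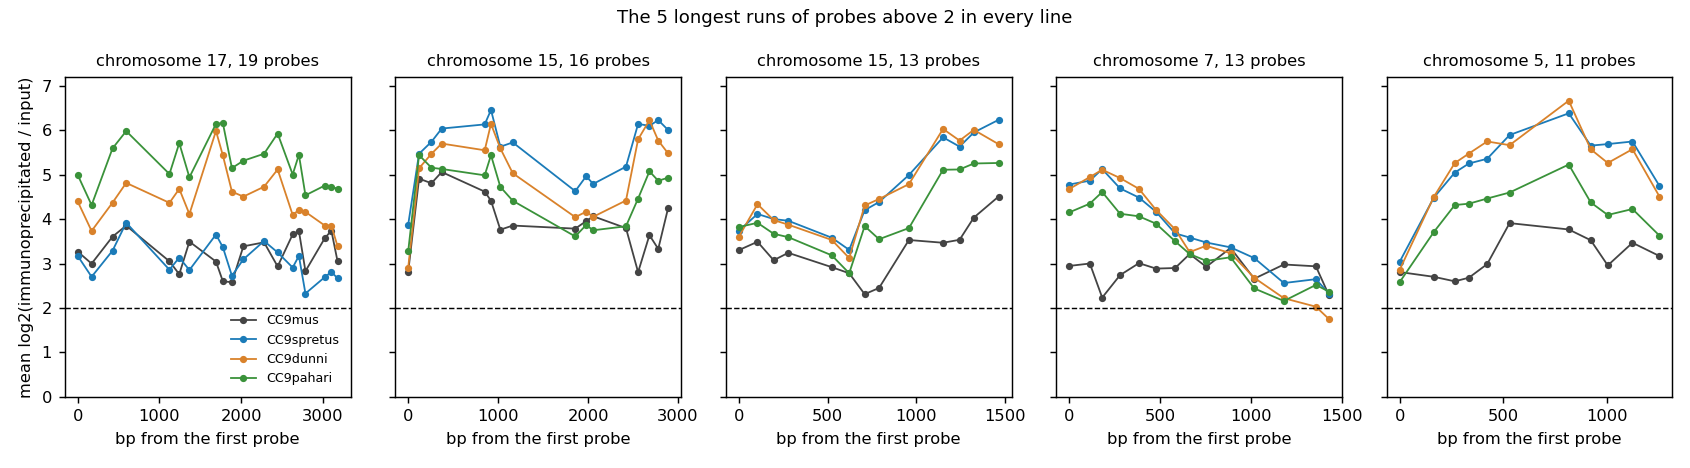
Mean log2 ratio over 3 arrays (y axis) of each probe along the loci of the 5 longest runs, by distance from the first probe of the locus in bp (x axis), with 1 line of points per cell line and the threshold of 2 dashed. CC9mus lay below CC9spretus and CC9dunni at all 13 probes of the shorter locus on chromosome 15 and at all 11 on chromosome 5. It did so at all but 1 of the 16 of the longer locus on chromosome 15. On chromosome 7 it was below both at 10 of 14 probes and above both at 2 near the far end. The CC9mus means include replicate 1, the lowest CC9mus array over each run, and the order without it is not shown. In the locus on chromosome 17 many spots were saturated, and the order of the lines there cannot be read from the plotted values.

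Whole loci also neighboured each other. The 535 loci with every probe above the threshold formed 449 that stood apart, 30 pairs, 5 groups of 3, 1 group of 4 at chr11:35821756-35953300 and 1 group of 7. The group of 7 was the one on chromosome 8, at chr8:46035862-46136956, where 36 probes over 101095 bp had no probe below the threshold between them. The 7 loci had 7, 7, 7, 3, 4, 4 and 4 probes. The nearest locus before them, 11775 bp away, had a median over the lines of -1.40, and the nearest after them, 281524 bp away, one of -0.41.

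The median of these 36 probes was high on every array. It was 2.43, 5.65 and 4.93 on the CC9mus arrays, 4.92, 5.29 and 6.80 in CC9spretus, 4.73, 4.43 and 5.80 in CC9dunni, and 4.73, 4.49 and 6.43 in CC9pahari. Replicate 3 was the highest array in each divergent line, and CC9mus replicate 1 was the lowest of all, with a median above 2 and single probes down to 0.27. All 36 were above 2 on each of the 9 arrays of the divergent lines, and their median input was between 0.51 and 0.80 times the array median. The loci differed among themselves. The third, at chr8:46108650-46109613, had line means of 4.96 ± 1.91, 6.68 ± 1.17, 6.18 ± 0.83 and 6.19 ± 0.91 (SD, n = 3, in the order CC9mus, CC9spretus, CC9dunni, CC9pahari), and the sixth, at chr8:46129584-46129933, had 2.54 ± 1.53, 4.10 ± 0.80, 3.99 ± 0.54 and 3.63 ± 0.35.

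Not all loci were high throughout. Of the loci with 5 or more probes, 271 held both shared high probes and others. In 131 of these the first or the last probe of the locus was a shared high probe, in 17 both were, and in 123 neither was. In these loci 30.4% of end probes and 35.4% of inner probes were shared high probes. Outside the set, levels were lower with distance. The median over the lines was 2.20 for probes within 100 bp of a shared high probe, 1.84 from 101 to 250 bp, 1.03 from 251 to 500 bp and 0.44 from 501 to 1000 bp. It was 0.10 from 1001 to 10000 bp and -0.09 farther away. Of those within 100 bp, 54.3% were above 2 in 3 lines.

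The shared high probes kept their order of levels best between arrays of the same slide. Across these probes, which share array, labelling and base composition and are not replicates, Pearson's r was 0.94 between CC9mus replicates 1 and 2, 0.97 and 0.98 between replicates 1 and 2 of CC9dunni and CC9pahari, and 0.93 between replicate 3 of CC9spretus and replicate 3 of CC9dunni. The last pair is of different lines on the same slide. Over the 62 pairs of arrays on different slides r was between 0.26 and 0.92, with a median of 0.57. CC9mus replicate 3 correlated with CC9mus replicates 2 and 1 at 0.40 and 0.47 over these probes. Over the other autosomal probes the same pairs had 0.78 and 0.60. Among pairs of divergent lines on different slides, r had a median of 0.85 in the 14 pairs of different lines from the same scan period, and of 0.62 in the 6 pairs of the same line from different periods.

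**Figure D5:**
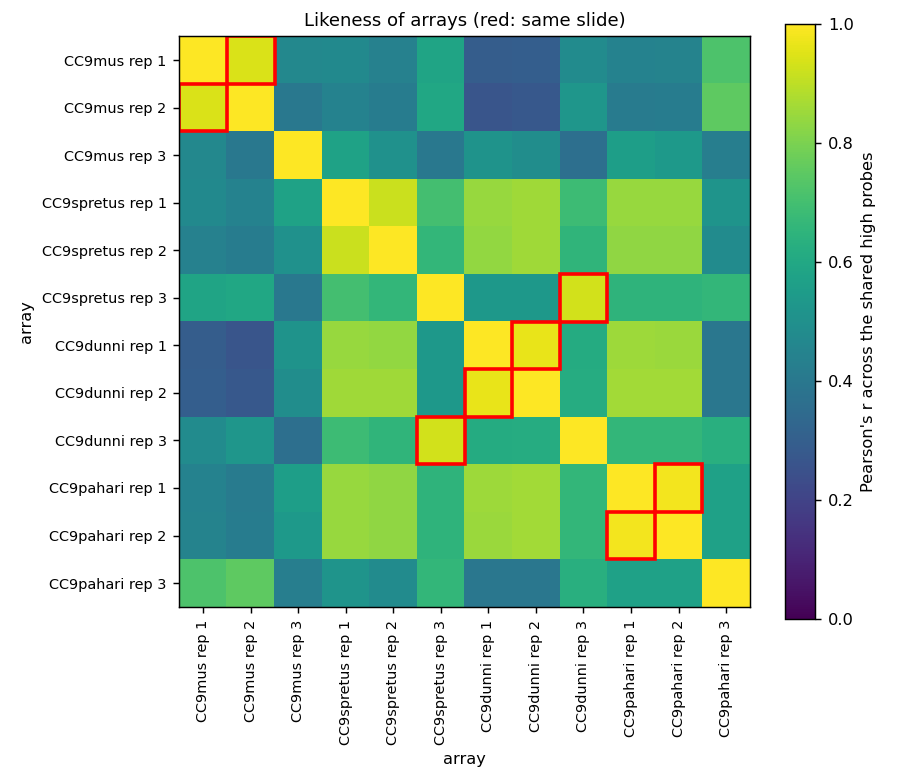
Pearson's r of the log2 ratios across the 2996 shared high probes (colour scale, 0 to 1) for each pair of the 12 arrays (both axes), with pairs on the same slide framed in red. The 4 framed pairs had r from 0.93 to 0.98, including 1 pair of different lines, and CC9mus replicate 3 had 0.40 and 0.47 with the other CC9mus arrays.

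Against the median gap between all lines, the median spread over the arrays of a line was larger in CC9mus and smaller in each divergent line. The median SD over 3 arrays was 1.87 in CC9mus, 0.73 in CC9spretus, 0.59 in CC9dunni and 0.37 in CC9pahari, and the median gap between the highest and the lowest line mean of a shared high probe was 1.11. For the 3 divergent lines alone the median gap was 0.69, below the SD of CC9spretus and above those of CC9dunni and CC9pahari. CC9spretus had the highest line mean at 1428 of the shared high probes (47.7%) and CC9mus the lowest at 1671 (55.8%). With all arrays scaled to equal spread, CC9dunni was the highest line at 2360 and CC9mus the lowest at 2846, so the highest line depended on how the arrays were scaled. On the unscaled ratios without CC9mus replicate 1, CC9mus was the highest line at 1623 of these probes and the lowest at 444, and CC9pahari was the lowest at 1583. With equal spread and without that array CC9mus was the lowest at 2969, so the rank of CC9mus turned with the scaling.

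Some probes hardly differed in their line means. At chr9:106553310-106553354 the line means were 4.82 ± 2.27 in CC9mus, 4.75 ± 0.31 in CC9spretus, 4.79 ± 0.54 in CC9dunni and 4.76 ± 0.28 in CC9pahari (SD, n = 3), a gap of 0.07. The gap was 0.03 at chr14:55433137-55433182 and 0.12 at chr3:54590304-54590355. Equal means did not imply equal arrays, since the 3 CC9mus arrays read 2.46, 5.01 and 6.98 at the probe on chromosome 9.

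The largest gap, 4.15, was at chr5:114064289-114064333. Its log2 ratio was 0.65, 2.29 and 5.01 on the CC9mus arrays, 5.79, 6.12 and 7.80 in CC9spretus, 6.47, 6.45 and 7.48 in CC9dunni, and 6.23, 6.14 and 4.63 in CC9pahari. CC9mus replicate 3 was above CC9pahari replicate 3, so the groups overlapped by that pair of arrays. The gap was 3.80 at chr5:141000260-141000310, or 2.79 with a flagged CC9mus spot kept, and 3.56 at chr17:39982186-39982230. The latter is a probe of the 19-probe locus, with an input between 16.7 and 68.1 times the array median and a saturated immunoprecipitated signal on 2 arrays, so that its gap is that of the values as read.

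In limma, each line was set against the average of its 3 counterparts over all 88737 probes. As every shared high probe had to exceed 2 in the line compared and in the others, the counts describe these probes and say nothing of the rest. CC9mus was lower at 50 shared high probes (1.67%), where 1.81% of all probes were called lower, and higher at none, where 2.76% of all probes were called higher and 10 shared high probes (0.33%) were higher at an unadjusted p under 0.05, against 14.1% of all probes. At the same unadjusted p, 464 shared high probes (15.5%) were lower, against 14.8% of all probes. The 50 probes lay in 44 loci on 17 chromosomes, with differences from -1.54 to -3.70 log2 units. Of the 50, 8 lay on chromosome 1, which held 4.21% of the shared high probes and 5.54% of autosomal probes. At 29 of the 50, all CC9mus arrays with an unflagged spot were below the other arrays. The test had picked the 50 for a low CC9mus mean, and the same count over all probes was not made. None of the 50 calls was left with scan period as a block, with slide as a random block, or among the arrays of the later scan period alone. The count was also 0 when any 1 array of a divergent line or CC9mus replicate 2 was left out. Without CC9mus replicate 1 there were 465 calls, 395 of them higher in CC9mus. With equal spread there were 962, all lower, with the replicate number as a block 149, without centring 127 and with normexp 1. The share of all probes called in each of these alternative fits was not counted.

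The largest fall in CC9mus was at chr5:114064289-114064333, whose values are given above, with a difference of -3.70 ± 0.76 (SE, limma adjusted p = 0.0405). At chr4:141033675-141033723, in a locus with 12 shared high probes of 13, the arrays read 0.76, 2.83 and 2.76 in CC9mus. They read 4.84, 5.36 and 6.84 in CC9spretus, 4.68, 4.81 and 5.80 in CC9dunni and 5.33 and 5.27 in CC9pahari, where replicate 3 was missing. All CC9mus arrays were below the others, and the difference was -3.24 ± 0.53 (SE, limma adjusted p = 0.0405). At chr5:141000260-141000310 CC9mus replicate 3 was missing because its spot was flagged as an outlier, and the other CC9mus arrays read 1.06 and 3.66, against 4.36 to 6.97 in the divergent lines. The difference was -3.09 ± 0.61 (SE, limma adjusted p = 0.0405). The measured arrays did not overlap, but the flagged spot read 5.39, inside the range of the divergent lines, so that lack of overlap rested on the flag. With the flagged spot kept the difference of the line means was -2.08.

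For CC9spretus, CC9dunni and CC9pahari against the mean of the other lines, limma called none of the shared high probes in either direction. Over all probes, 0.00113% were called higher in CC9spretus and 0% in the other 5 combinations of line and direction. At an unadjusted p under 0.05, 101 shared high probes (3.37%) were higher and 0 lower in CC9spretus, against 0.65% and 1.33% of all probes. In CC9dunni 75 (2.50%) were higher and 4 (0.13%) lower, against 2.84% and 2.01%, and in CC9pahari 9 (0.30%) and 14 (0.47%), against 1.35% and 1.87%. The median difference over the shared high probes was 0.47 in CC9spretus, 0.24 in CC9dunni, -0.18 in CC9pahari and -0.52 in CC9mus, and over all probes it was between -0.06 and 0.09. Without CC9mus replicate 1 the sign turned in CC9mus, to 0.45, and in CC9dunni, to -0.09, with 0.14 in CC9spretus and -0.50 in CC9pahari.

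The 3 divergent lines, which had arrays in both scan periods, were compared among themselves by a limma F test with scan period in the fit. Arrays on the same slide were treated as independent in it, and a slide block was not tried. The F test called 30 shared high probes in 21 loci (1.00%), where 0.206% of all probes were called. At an unadjusted p under 0.05, 1176 (39.3%) passed, where 15.3% of all probes passed. The rule chose these probes on the same ratios, so the counts describe them and are no test of the set. CC9pahari was the lowest line at 23 of the 30, CC9spretus at 5 and CC9dunni at 2. Over all shared high probes CC9pahari was also the lowest of the 3. Its mean of array medians was 3.46, against 3.83 in CC9dunni and 4.03 in CC9spretus. The arrays of equal number in these lines deviated together, and with the replicate number as a block in place of scan period the count was 0. It was also 0 without scan period in the fit and with arrays of equal spread.

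The probe with the smallest p among the 30, at chr17:70865492-70865536, read 4.05, 4.40 and 3.52 in CC9spretus. It read 5.03, 5.03 and 4.46 in CC9dunni and 2.86, 2.74 and 2.52 in CC9pahari. The 3 lines did not overlap, with CC9dunni highest and CC9pahari lowest (limma adjusted p = 0.0155). At chr18:65243342-65243386, in a locus where all 6 probes were shared high probes, the line means were 4.17 ± 0.35 in CC9spretus, 4.32 ± 0.18 in CC9dunni and 2.42 ± 0.07 in CC9pahari (SD, n = 3, limma adjusted p = 0.0155). At chr18:37923021-37923066 they were 4.06 ± 0.29, 2.74 ± 0.33 and 2.03 ± 0.07 (SD, n = 3, limma adjusted p = 0.0250). In the first of these CC9pahari stood apart, and in the second CC9spretus did.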

How the data were processed

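DNA methylation was measured by MeDIP on 12 Agilent 2-colour mouse CpG island arrays. The authors deposited an intensity per spot and channel, from which Agilent Feature Extraction 11.0.1.1 had subtracted background and which it had dye-normalised linearly. The deposited ratios are the log10 of immunoprecipitated over input DNA, not centred, and the table of the whole series held the same values as the array files. From the intensities, log2 ratios were computed for 88737 probes, spots flagged as outliers were set to missing, and the median of each array was subtracted. Per the file headers, positions were on mm9. Lines were taken from the labels, which do not say that arrays came from separate cultures, so p-values measure the spread between these arrays.

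The probes, the rule and the comparisons were chosen with earlier results of these data known. Shares, runs and levels are descriptions. Differences between lines were fitted in limma 3.58.1 (R 4.3.3; lmFit and eBayes) over all probes with Benjamini-Hochberg adjustment and a threshold of 0.05. Of the probes above 2 in every line, those named were the 5 highest and the 5 longest runs, the 3 with the largest and the 3 with the smallest gap between lines, the 3 nearest to the threshold on either side, and the 3 with the largest difference in each test (the smallest p in the F test), 1 per locus; the group of loci on chromosome 8 was chosen after its values were seen. Fits were tested on simulated data. Deviations of equally numbered arrays from their line means correlated at 0.12 to 0.54 in all 9 pairs of the divergent lines. In the pairs with CC9mus they correlated from -0.38 to 0.19, so numbers were taken to pair the divergent lines only. Replicate 3 of these lines was also the array of the later scan period, so pairing by number and scan period cannot be told apart. Normexp correction of the raw intensities with an offset of 50, uncentred ratios, the deposited log10 ratios, equal spread, filters, blocks and the omission of single arrays were tried as alternatives. Tables were made in Python 3.11.15 with numpy 2.4.6 and pandas 2.3.3.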

Additional observations from a re-analysis of the deposited data

How the results depend on the processing

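The number of probes above 2 in every line, 2996 in 1029 loci, depended on the scale of the ratio. It was 1115 in 438 loci with normexp, 1314 in 485 loci at a threshold of 3, 459 in 210 loci when every array had to be measured and above 2, and 4491 in 1739 loci at 1.5. When single arrays were left out it ranged from 2050 to 3279 probes and from 800 to 1100 loci, the lowest without CC9mus replicate 3 and the highest without CC9mus replicate 1. With equal spread it was 2300 and with uncentred ratios, whose array medians lay between -0.36 and -0.02, 2633. The 3 divergent lines alone, an alternative chosen after seeing the data, gave 3353. The loci with every probe above 2, 535 in the report, numbered 149 with normexp, 249 at a threshold of 3, 79 when every array had to be above 2, 403 with equal spread, 395 with probes of dim input not counted as high, and from 379 without CC9mus replicate 3 to 608 without CC9mus replicate 1. The longest run, 19 probes in the report, was 8 with normexp, 11 at a threshold of 3, 7 when every array had to be above 2, and 16 with equal spread, without saturated probes, without CC9mus replicate 3 and without CC9spretus replicate 2. The order of the lines without CC9mus replicate 1, with and without equal spread, was an alternative chosen after seeing the data. Of the 18 named probes, 6 stayed above 2 in every line with normexp and 9 with equal spread. The top 5 chromosomes were the same with each array left out (5 of 5, lowest and highest), with equal spread and by loci, but only 3 of them were in the top 5 when every array had to be above 2.

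The 50 calls for CC9mus became 962 with equal spread, 127 without centring, 1 with normexp, 149 with the replicate number as a block, and 0 with scan period as a block, with slide as a random block and in the later scan period alone (chosen after seeing the data). They ranged from 0 to 465 with single arrays left out, and were 43 without CC9mus replicate 3. For CC9dunni, equal spread gave 1 call in place of 0, and leaving out single arrays gave 0 throughout for CC9spretus, CC9dunni and CC9pahari. The 30 calls among the divergent lines became 92 with normexp and 0 with equal spread, without scan period and with the replicate block, and ranged from 0 to 54 with single arrays left out, the highest without CC9spretus replicate 2; without any of the other 8 arrays there were at most 7. These are counts of shared high probes only, and the share of all probes called under each alternative was not counted. The causes of these changes were not tested.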

Other observations

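Outside the autosomes, 97 of the 2471 probes on the X chromosome (3.93%) had a mean log2 ratio above 2 in every line, against 3.49% of autosomal probes. In the opposite direction, 4 autosomal probes had a mean below -2 in every line.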
